A study of Mus musculus with 6 samples.

Results

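The enzymes that carry glutathione and thioredoxin chemistry and remove peroxide and superoxide were followed through an RNA-seq comparison of mouse prostate luminal cells, the secretory epithelium of the gland. Genes were taken by symbol: the cytosolic and membrane glutathione transferases (Gst and Mgst), glutathione peroxidases (Gpx), peroxiredoxins (Prdx), thioredoxins (Txn1, Txn2) and their reductases (Txnrd), glutathione synthesis and recycling (Gclc, Gclm, Gss, Gsr), sulfiredoxin (Srxn1), superoxide dismutases (Sod), catalase (Cat) and quinone reductases (Nqo). This gave 56 genes of the 24346 symbols in the tables, with 74 listed transcripts. The group called CSF1 held 3 libraries from C57BL/6 transgenic mice whose transgene places mouse Csf1, a growth factor of macrophages, behind the rat probasin promoter, an androgen-responsive promoter used to drive genes in prostate epithelium. The group called WT held 3 libraries from wild-type littermates of the same strain. Mice of both groups were 4 months old, and luminal cells were isolated by fluorescence-activated sorting with markers not given in the sources used here. Titles in both groups carry the numbers 3, 5 and 8, and values below follow that order. No label says that libraries of a group are from different animals; every p-value therefore rests on the spread among these 6 libraries, which may be technical.

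Glutathione, a small thiol, is made by glutamate-cysteine ligase and glutathione synthetase, is spent by peroxidases and transferases, and is returned to its reduced form by glutathione reductase. Peroxiredoxins form a parallel route for peroxide, recharged by thioredoxin and thioredoxin reductase, while superoxide dismutases and catalase need no thiol. Many of these genes are known targets of NRF2, the transcription factor encoded by Nfe2l2, through antioxidant response elements in their promoters. In the prostate, loss of the pi-class transferase GSTP1 is a well known feature of human prostate cancer.

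Csf1 RNA was high in the CSF1 group and low in the WT group, at 1082, 1326 and 1678 FPKM in the CSF1 libraries and 1.54, 2.25 and 3.98 FPKM in the WT libraries. Luminal keratins were abundant in every library, with Krt8 at 1049.8 to 2334 FPKM and Krt18 at 1735 to 2666 FPKM. Of 10 luminal markers, Cdh1, Epcam and Tmprss2 were higher and Hoxb13 was lower in CSF1. Markers of other cells also moved with the group, and their part in the values below was not tested. Summed over each list, macrophage markers reached 895 to 3596 FPKM in CSF1 and 28.3 to 137 FPKM in WT (15 of 15 genes higher), stromal markers 511 to 756 FPKM in CSF1 and 97.6 to 115 FPKM in WT (9 of 9 higher) and basal markers 414 to 555 FPKM in CSF1 and 48.8 to 55.3 FPKM in WT (4 of 5 tested higher). Endothelial markers reached 11.6 to 14.9 FPKM in CSF1 and 1.08 to 2.52 FPKM in WT (3 of 3 tested higher) and seminal vesicle and epididymis markers 5.77 to 22.3 FPKM in CSF1 and 1.75 to 2.63 FPKM in WT (1 of 1 tested higher). Red blood cell markers reached 695 to 6712 FPKM in CSF1 and 113 to 553 FPKM in WT (0 of 5 tested higher) and neutrophil markers 1.40 to 31.2 FPKM in CSF1 and 0 to 0.133 FPKM in WT (0 of 1 tested higher), with Mpo and Ngp listed at 0 in every library. Of all genes tested, 24.9% were higher and 7.47% lower in CSF1. Of the tested markers, 7 of the macrophage, 6 of the stromal and all 3 of the endothelial list averaged under 1 FPKM in WT and entered the test only through their CSF1 values, so these counts are a description. Most of the stromal sum was 1 gene, Dcn, at 394 to 522 FPKM in CSF1 and 88.2 to 102 FPKM in WT. Most of the basal sum in CSF1 was Krt15, at 304 to 356 FPKM, against 16.1 to 27.9 FPKM in WT. CSF1 library 8 stood apart as the highest for the macrophage, red blood cell and neutrophil sums. In such bulk libraries fewer cells of a type and less RNA per cell cannot be told apart. The CSF1 libraries also had the higher ratio of read coverage to FPKM, at 4.17 to 5.01 against 2.72 to 3.50 in WT.

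**Figure D1:**
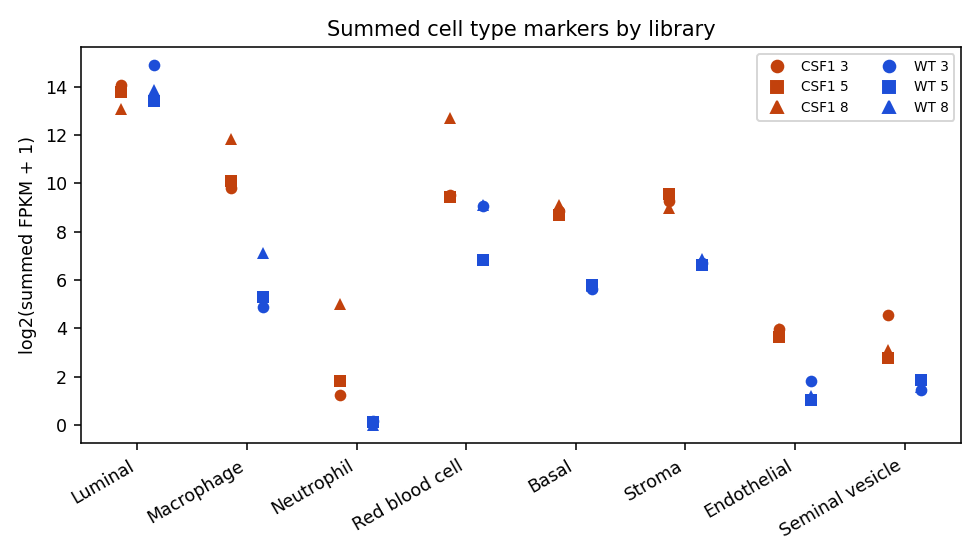
Summed FPKM of 8 lists of cell type markers as log2(summed FPKM + 1), 1 point per library, with CSF1 on the left and WT on the right of each list and the symbol giving the library number. Macrophage, neutrophil, red blood cell, basal, stromal, endothelial and seminal vesicle sums were higher in every CSF1 library than in any WT library. CSF1 library 8 was highest for macrophage, neutrophil and red blood cell markers. Most of the seminal vesicle sum was 1 gene, Ceacam10, most of the stromal sum was Dcn, and most of the basal sum in CSF1 was Krt15.

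Across the 56 genes the response was mixed rather than uniform. A handful of enzymes rose steeply in CSF1, led by the epithelial glutathione peroxidase Gpx2 and the membrane transferase Mgst1, while the most abundant member of the set, Prdx6, fell, as did Sod1. The Sod1 call held under all 20 other settings of the processing and the Prdx6 call under 13. Of the 47 members averaging 1 FPKM or more over the 6 libraries, 13 were higher and 6 lower in CSF1 and 28 did not pass an adjusted p of 0.05. Higher calls were 27.7% of the tested members against 24.9% of all 10951 genes tested, and lower calls were 12.8% against 7.47%, so the higher share lay near the background. The groups did not overlap for 23 members, 15 with CSF1 higher and 8 with CSF1 lower, beside 47.7% of all genes without overlap (34.7% with CSF1 higher and 13.1% lower). At least 2-fold in mean FPKM + 1, 7 members rose and 1 fell, beside 14.9% and 2.47% of all genes. The median log2 change was 0.15 over the tested members and 0.17 over all genes. Together the members held 1.17%, 1.12% and 1.13% of all FPKM in the CSF1 libraries and 1.04%, 1.03% and 1.09% in the WT libraries. Sod3 and Gpx2-ps1 averaged under 1 FPKM in WT and Mgst2 under 1 FPKM in CSF1, so these 3 entered the test only through the group in which they were high. The 9 members below the filter were Gpx5, Gpx6, Gpx7, Gsta1, Gsta2, Gstm3, Gstt4, Nqo1 and Prdx6b.

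The balance of calls depended on scaling. Under quantile normalization, median-ratio scaling and rescaling outside the 5 most abundant genes, 9 members were higher and 11 lower under each, so that 45% of member calls were higher against 68.4% with FPKM as deposited. Over all genes the same share was 41.8%, 53.6% and 59.7% under these 3 scalings, against 77.0% as deposited. These scalings moved the median change of all genes from 0.17 to −0.16, −0.03 and 0.0028 on the log2 scale. Under each of them Gstm5, Prdx5, Sod2 and Srxn1 no longer passed, and Gpx8, Gstk1, Gstm6, Gstt2 and Prdx4 passed as lower.

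**Figure D2:**
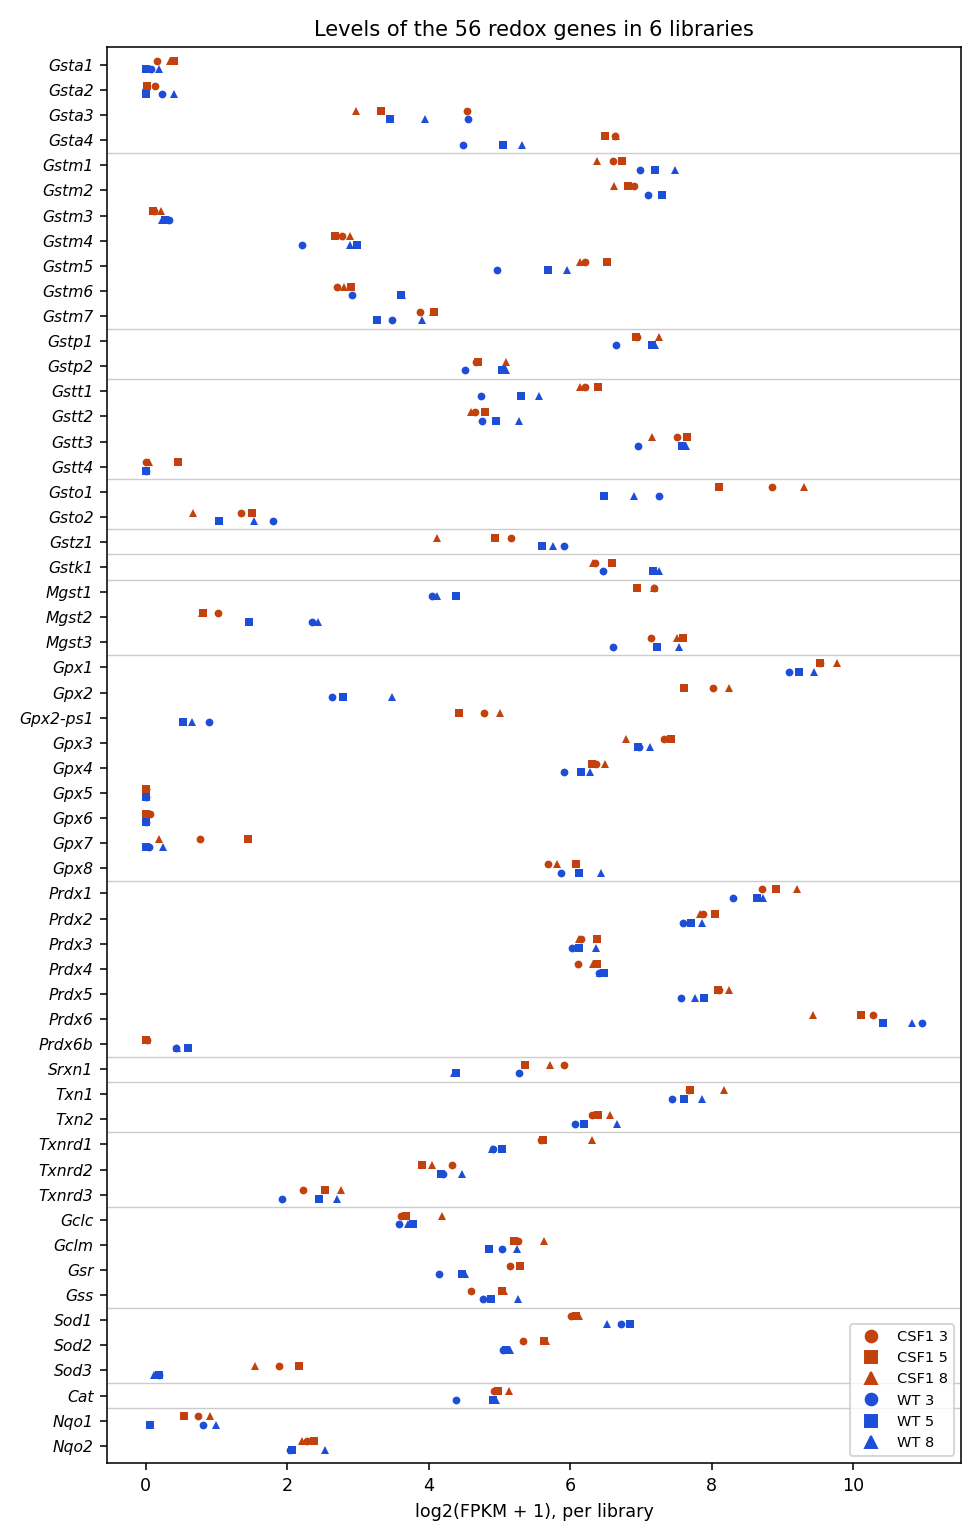
Levels of all 56 genes in the 6 libraries as log2(FPKM + 1), grouped by enzyme class with grey lines between classes, CSF1 points in orange above WT points in blue and the symbol giving the library number. Gpx2, Gpx2-ps1, Mgst1, Gsto1, Gsta4 and Sod3 show CSF1 points well to the right of WT points, and Prdx6, Mgst2, Gstz1 and Sod1 show them to the left.

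Gpx2 had the largest change of the glutathione peroxidases. Gpx2 encodes a cytosolic selenoprotein of epithelia, best known from the gastrointestinal lining. The gene (chromosome 12, 76792335 to 76795554, mm10) stood at 259, 193 and 303 FPKM in the CSF1 libraries and 5.18, 5.91 and 10.1 FPKM in the WT libraries. Every CSF1 library lay above every WT library, with a gap far wider than the spread within a group. The mean was 252 ± 55.1 FPKM in CSF1 and 7.07 ± 2.66 FPKM in WT (SD, n = 3 each), a 35.6-fold difference (log2 change 4.99 with SE 0.25, limma adjusted p = 5.94e-06). Cufflinks' own interval in WT was 4.31 to 6.05, 5.01 to 6.81 and 8.77 to 11.5 FPKM in libraries 3, 5 and 8, so the gene was detected in all 3. This was the 34th largest rise among the 10951 genes.

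Gpx2 has a transcribed pseudogene, Gpx2-ps1, on another chromosome (chromosome 7, 100264544 to 100265561), and its sequence bears on how far the values can be told apart. Beginning at the start codon, the first 120 coding bases of Gpx2 and the matching stretch of the pseudogene are shown from the GENCODE M21 transcripts (GRCm38), with the 3 differing bases in capitals. The stretch ends in tga, which in Gpx2 is read as selenocysteine, the residue of the active site.
Gpx2: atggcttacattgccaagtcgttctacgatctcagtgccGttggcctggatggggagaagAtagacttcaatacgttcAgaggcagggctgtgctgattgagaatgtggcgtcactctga
Gpx2-ps1: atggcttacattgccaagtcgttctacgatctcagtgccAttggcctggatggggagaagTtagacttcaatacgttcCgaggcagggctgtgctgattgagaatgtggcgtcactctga
Over the aligned coding region 10 of 569 bases differed, and identity over the whole alignment was 98.1%. Of the pseudogene's 50-base windows, 36.8% occur unchanged in Gpx2, and 18.9% of those of Gpx2 occur in the pseudogene. These shares use a GENCODE pseudogene transcript of 571 bases. The pseudogene transcript that holds the FPKM value has 1018 bases, and its bases outside the shorter one were not compared. Reads from these stretches could have been split between both, so the separate values are uncertain.

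Gpx2-ps1 stood at 26.5, 20.4 and 31.2 FPKM in the CSF1 libraries and 0.857, 0.444 and 0.572 FPKM in the WT libraries, again without overlap between the groups (log2 change 4.05 with SE 0.20, limma adjusted p = 5.94e-06). The ratio of Gpx2 to Gpx2-ps1 was 9.74, 9.46 and 9.71 in CSF1 and 6.04, 13.3 and 17.7 in WT, nearly constant across the CSF1 libraries and scattered across the WT libraries. Summed as 1 gene, the pair stood at 285, 214 and 334 FPKM in the CSF1 libraries and 6.04, 6.35 and 10.7 FPKM in the WT libraries, a 36.1-fold difference (log2 change 5.02 with SE 0.24, limma adjusted p = 5.33e-06). Gpx2-ps1 lay below Gpx2 in every library and was higher in CSF1 too, so the sum had to show about the same rise. The sum therefore does not test how reads were split.

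Gpx1, the ubiquitous cytosolic peroxidase, remained the most abundant member of the family. It stood at 741, 737 and 870.1 FPKM in the CSF1 libraries and 547, 601 and 694 FPKM in the WT libraries. Its groups did not overlap, but the change did not pass (log2 change 0.35 with SE 0.14, limma adjusted p = 0.0901), while with the library number as a block the limma adjusted p was 0.0394. Gpx3, the secreted plasma form, Gpx4, which reduces lipid hydroperoxides in membranes, and Gpx8, an endoplasmic reticulum form, did not pass, with log2 changes of 0.16, 0.28 and −0.28 and means of 57.4 to 146 FPKM in CSF1 and 68.5 to 129 FPKM in WT. Gpx7 lay below the filter and Gpx5 was listed at 0 in all 6 libraries. The family summed to 1348 ± 99.2 FPKM in CSF1 and 889 ± 108 FPKM in WT (SD, n = 3 each). Gpx2 made up 19.6%, 15.3% and 20.8% of that sum in the CSF1 libraries, against 0.653%, 0.680% and 1.01% in the WT libraries.

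**Figure D3:**
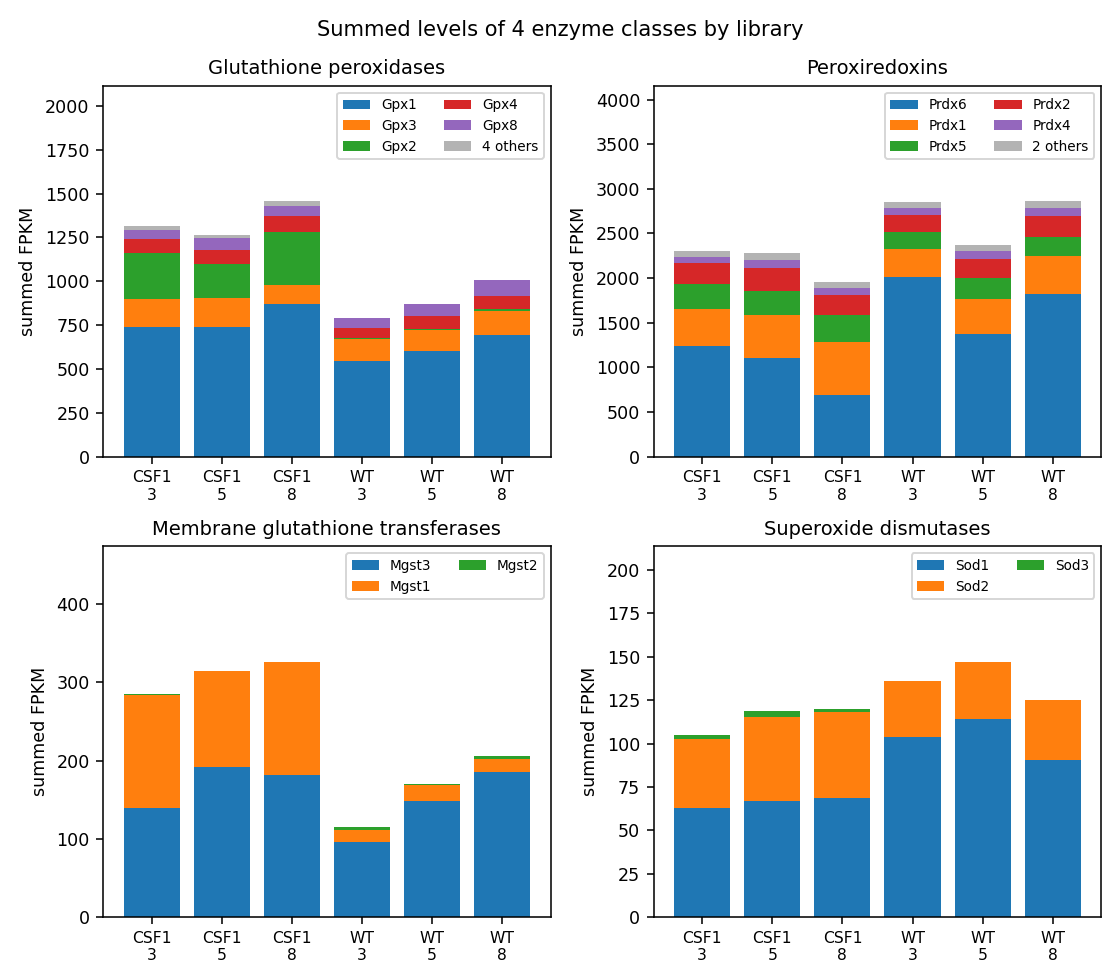
FPKM summed over the members of 4 enzyme classes in each library, CSF1 libraries on the left and WT libraries on the right of each panel, with bars stacked by gene from 0. Gpx2 and Mgst1 are thick bands in all 3 CSF1 libraries and thin bands in all 3 WT libraries, while the Prdx6 band is thinner in every CSF1 library than in any WT library.

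The membrane transferases, which belong to the MAPEG family of membrane proteins in eicosanoid and glutathione metabolism, moved in opposite directions. Mgst1, which conjugates glutathione to reactive compounds and reduces lipid hydroperoxides at the endoplasmic reticulum and outer mitochondrial membrane (chromosome 6, 138140537 to 138156752, mm10), stood at 145, 122 and 145 FPKM in the CSF1 libraries and 15.5, 19.9 and 16.3 FPKM in the WT libraries. The libraries of each group lay close together and the groups were far apart, with a 7.95-fold difference (log2 change 2.92 with SE 0.15, limma adjusted p = 5.94e-06). Mgst2, which can also make leukotriene C, went the other way at 1.02, 0.746 and 0.733 FPKM in the CSF1 libraries and 4.09, 1.75 and 4.41 FPKM in the WT libraries. Its groups did not overlap (log2 change −1.21 with SE 0.28, limma adjusted p = 0.0116). Mgst3 was the most abundant of the class in WT, at 139.8, 192 and 181 FPKM in the CSF1 libraries and 96.2, 149 and 185 FPKM in the WT libraries, and its groups overlapped (log2 change 0.29, limma adjusted p = 0.396). The class summed to 309 ± 21.2 FPKM in CSF1 and 164 ± 45.4 FPKM in WT (SD, n = 3 each), and Mgst1 made up 50.7%, 38.8% and 44.3% of it in the CSF1 libraries and 13.4%, 11.7% and 7.91% in the WT libraries. Without both libraries numbered 8, Mgst2 had a log2 change of −0.99 and a limma adjusted p of 0.0711, above the threshold.

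Of the cytosolic transferases, Gsto1, Gsta4, Gstt1 and Gstm5 were higher and Gstm1, Gstm2 and Gstz1 lower. Summed over a class, mu-class FPKM was 308 ± 29.5 in CSF1 and 373 ± 57.1 in WT and theta-class FPKM 274 ± 39.1 in CSF1 and 238 ± 56.3 in WT (SD, n = 3 each), with the libraries of both groups overlapping in each class. Gsto1, an omega-class enzyme that reduces thiol adducts and dehydroascorbate rather than conjugating foreign compounds (chromosome 19, 47854989 to 47864788), was the most abundant transferase in CSF1. Its level was 459.9, 275 and 629 FPKM in the CSF1 libraries and 152, 88.1 and 118 FPKM in the WT libraries. The lowest CSF1 library lay above the highest WT library, and the spread within CSF1 was wide, with library 8 at the top (log2 change 1.87 with SE 0.31, limma adjusted p = 0.00211, 3.81-fold). Without CSF1 library 8 the log2 change was 1.60. Its neighbour Gsto2 (chromosome 19, 47865545 to 47886305) lay between 0.592 and 2.47 FPKM over all libraries and did not pass (log2 change −0.28).

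Gsta4, the alpha-class enzyme that clears 4-hydroxynonenal, a product of lipid peroxidation (chromosome 9, 78191966 to 78209349), stood at 98.2, 88.7 and 98.8 FPKM in the CSF1 libraries and 21.3, 32.1 and 38.7 FPKM in the WT libraries. All CSF1 values lay within a narrow band above the highest WT value (log2 change 1.64 with SE 0.21, limma adjusted p = 0.000587, 3.10-fold). Gsta3 did not pass (log2 change −0.37), and Gsta1 and Gsta2 stayed below 0.4 FPKM in every library. Gstt1, a theta-class enzyme acting on small halogenated compounds (chromosome 10, 75783813 to 75798584), stood at 73.2, 83.1 and 69.2 FPKM in the CSF1 libraries and 25.8, 38.6 and 46.3 FPKM in the WT libraries, without overlap (log2 change 1.04 with SE 0.21, limma adjusted p = 0.00575). Of its neighbours on chromosome 10, Gstt2 and Gstt3 did not pass and Gstt4 lay below the filter. Gstt3, the most abundant theta member, stood at 181, 201 and 141 FPKM in the CSF1 libraries and 123, 191 and 197 FPKM in the WT libraries and overlapped (log2 change 0.05, 95% interval −0.44 to 0.54), and Gstt2 had a log2 change of −0.31 that did not pass.

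The mu class lies in a cluster on chromosome 3, from 107895854 (Gstm5) to 108044859 (Gstm4), and its members split. Gstm2, the most abundant of them, stood at 118, 112 and 97.3 FPKM in the CSF1 libraries and 136, 157 and 156 FPKM in the WT libraries, and Gstm1 at 96.1, 106 and 81.9 FPKM in the CSF1 libraries and 126, 146 and 177 FPKM in the WT libraries. Both had every CSF1 library below every WT library and passed as lower (log2 changes −0.45 and −0.65, limma adjusted p = 0.0285 and 0.0163). For Gstm2 the limma adjusted p was 0.0715 without CSF1 library 5, 0.0737 without CSF1 library 8, 0.112 without WT library 5 and 0.0740 without WT library 8. For Gstm1 the limma adjusted p was 0.0556 without WT library 5 and 0.0502 without WT library 8. Gstm5, at the other end of the cluster, stood at 73.1, 90.5 and 69.7 FPKM in the CSF1 libraries and 30.1, 50.4 and 60.9 FPKM in the WT libraries. It passed as higher (log2 change 0.76 with SE 0.25, limma adjusted p = 0.0450), and did not pass under 11 of 20 other settings, among them those leaving out 1 library, where the limma adjusted p was 0.0811 without CSF1 library 3, 0.132 without CSF1 library 5, 0.0579 without CSF1 library 8, 0.0736 without WT library 3 and 0.0819 without WT library 5. Gstm6 had a log2 change of −0.58 that did not pass (limma adjusted p = 0.0729) and passed as lower with the library number as a block (0.0461), and Gstm4 and Gstm7 did not pass either (log2 changes 0.09 and 0.46). With 1 library left out, Gstm6 also passed as lower, where the limma adjusted p was 0.0119 without WT library 3. Gstm7 then passed as higher, where the limma adjusted p was 0.0297 without WT library 8. Of the exon bases of Gstm5, 13.9% overlap an antisense transcript, 4933431E20Rik, on the opposite strand, which was listed at 0 in all CSF1 libraries and at 0.611, 0.790 and 0 FPKM in WT. The library kits do not mark strand, so reads of such pairs cannot be separated.

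Among the remaining transferases, Gstz1 fell and the others did not pass. Gstz1, the maleylacetoacetate isomerase of tyrosine breakdown, stood at 34.7, 29.5 and 16.3 FPKM in the CSF1 libraries and 59.2, 47.5 and 52.9 FPKM in the WT libraries, with CSF1 library 8 the lowest of all 6 (log2 change −1.02 with SE 0.25, limma adjusted p = 0.0155), and the limma adjusted p was 0.0510 without WT library 3. The Gstz1 exons share 9.14% of their bases with Pomt2 on the opposite strand, which stood at 2.29, 4.14 and 2.48 FPKM in the CSF1 libraries and 0, 2.31 and 3.22 FPKM in the WT libraries. Gstk1, the kappa-class enzyme of mitochondria and peroxisomes, stood at 80.6, 95.1 and 78.9 FPKM in the CSF1 libraries and 86.9, 143 and 152 FPKM in the WT libraries, with CSF1 and WT libraries overlapping (log2 change −0.54 with SE 0.21, limma adjusted p = 0.0868), and the limma adjusted p was 0.00588 without WT library 3. Gstp1, the pi-class enzyme, stood at 122, 121 and 152 FPKM in the CSF1 libraries and 99.4, 142 and 146 FPKM in the WT libraries, with the groups interleaved. Gstp1 and Gstp2 share 94.5% of their aligned transcript bases, and their sum stood at 146, 146 and 185 FPKM in the CSF1 libraries and 121, 174 and 179 FPKM in the WT libraries. The log2 change of that sum was 0.02, with a 95% interval of −0.39 to 0.44, so a change of either sign within that interval was not resolved. Cytosolic and membrane transferases together summed to 1721, 1606 and 1853 FPKM in CSF1 and 1069, 1305 and 1471 FPKM in WT.

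In the peroxiredoxin and thioredoxin system Prdx5, Srxn1 and Txnrd1 were higher, Prdx6 was lower, and the other tested members did not pass. Prdx6, which draws on glutathione and also hydrolyses phospholipids, was the most abundant member of the whole set and ranked 31st among all genes by mean FPKM. It stood at 1241, 1103 and 688 FPKM in the CSF1 libraries and 2013, 1370.1 and 1827 FPKM in the WT libraries. Every CSF1 library was below every WT library, and CSF1 library 8 was far below the other CSF1 libraries (log2 change −0.81 with SE 0.24, limma adjusted p = 0.0331). Without CSF1 library 8 its log2 change was −0.55. The call held under 13 of 20 other settings. It was lost on leaving out any of 4 libraries: the limma adjusted p was 0.0536 without CSF1 library 5, 0.0592 without CSF1 library 8, 0.0995 without WT library 3 and 0.0941 without WT library 8. Fitted per transcript, its only listed transcript with a value had a limma adjusted p of 0.0525. Of the summed peroxiredoxins, 2181 ± 195 FPKM in CSF1 and 2696 ± 284 FPKM in WT (SD, n = 3 each), Prdx6 made up 53.8%, 48.3% and 35.2% of it in the CSF1 libraries and 70.5%, 57.8% and 63.8% in the WT libraries.

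Of the other tested peroxiredoxins, 1 passed as higher and none as lower. Prdx5, found in mitochondria, peroxisomes and cytosol, stood at 274, 271 and 302 FPKM in the CSF1 libraries and 188, 235 and 216 FPKM in the WT libraries and passed as higher (log2 change 0.41 with SE 0.13, limma adjusted p = 0.0419), though it did not pass under 13 of 20 other settings. On leaving out 1 library the limma adjusted p was 0.0895 without CSF1 library 3, 0.0902 without CSF1 library 5, 0.0974 without CSF1 library 8, 0.0992 without WT library 3, 0.0623 without WT library 5 and 0.0754 without WT library 8. Prdx5 shares 19.1% of its exon bases with Trmt112 on the opposite strand, which stood at 56.5, 48.3 and 53.6 FPKM in the CSF1 libraries and 51.2, 57.1 and 52.8 FPKM in the WT libraries. Prdx1 had a log2 change of 0.39 that did not pass (limma adjusted p = 0.127) and did with the library number as a block (0.0324). Prdx2, Prdx3 and Prdx4 did not pass, with log2 changes of 0.20, 0.05 and −0.16. Prdx2 shares 5.67% of its exon bases with Junb and 5.80% with Rnaseh2a, both on the opposite strand. Junb stood at 819, 729 and 827 FPKM in CSF1 and 551, 554 and 525 FPKM in WT. Prdx6b, a relative of Prdx6 below the filter, was at 0.00896, 0 and 0.00856 FPKM in CSF1 and 0.340, 0.512 and 0.357 FPKM in WT.

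Srxn1 encodes sulfiredoxin, which restores overoxidised peroxiredoxins, and Txnrd1 the cytosolic thioredoxin reductase. Srxn1 stood at 59.2, 39.995 and 51.5 FPKM in the CSF1 libraries and 37.6, 19.9 and 19.4 FPKM in the WT libraries. The groups did not overlap, but the lowest CSF1 library and the highest WT library lay close together (log2 change 0.99 with SE 0.26, limma adjusted p = 0.0201). It did not pass under 8 of 20 other settings, and the limma adjusted p was 0.0654 without CSF1 library 3, 0.0800 without WT library 5 and 0.0731 without WT library 8. Txnrd1, a selenoprotein that recharges thioredoxin, stood at 46.8, 47.9 and 78.2 FPKM in the CSF1 libraries and 29.1, 31.7 and 28.7 FPKM in the WT libraries, with CSF1 library 8 well above the others (log2 change 0.89 with SE 0.20, limma adjusted p = 0.0104). Without that library its log2 change was 0.65 and still passed. Txn1, the thioredoxin it serves, stood at 204, 205 and 287 FPKM in the CSF1 libraries and 173, 194 and 231 FPKM in the WT libraries, with overlap (log2 change 0.21, limma adjusted p = 0.399). The mitochondrial pair Txn2 and Txnrd2 and the testis-enriched Txnrd3 did not pass, with log2 changes of 0.11, −0.19 and 0.15.

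The recycling gene Gsr rose, and the synthesis genes did not pass. Gsr, glutathione reductase, stood at 34.4, 37.9 and 38.0 FPKM in the CSF1 libraries and 16.7, 21.2 and 21.8 FPKM in the WT libraries, with all CSF1 libraries above all WT libraries (log2 change 0.86 with SE 0.15, limma adjusted p = 0.00258, 1.85-fold). Gclc, the catalytic subunit of glutamate-cysteine ligase and the rate-limiting step of synthesis, stood at 11.2, 11.7 and 17.1 FPKM in the CSF1 libraries and 10.9, 12.6 and 12.0 FPKM in the WT libraries. Only CSF1 library 8 was above the WT range (log2 change 0.13, 95% interval −0.29 to 0.56, limma adjusted p = 0.623). The modifier subunit Gclm stood at 37.3, 35.9 and 48.3 FPKM in the CSF1 libraries and 31.7, 27.9 and 36.8 FPKM in the WT libraries, with overlap (log2 change 0.32, 95% interval −0.06 to 0.70, limma adjusted p = 0.179). Gss, glutathione synthetase, had a log2 change of −0.07. Whether Gsr and Gclc changed by different amounts was not tested.

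All 3 superoxide dismutases passed, 1 lower and 2 higher, beside 7.47% and 24.9% of all genes. Of the 3, Sod3 averaged under 1 FPKM in WT and was tested only because of its CSF1 values, which leaves the count a description. Sod1, the copper-zinc enzyme of the cytosol, stood at 63.1, 66.8 and 68.6 FPKM in the CSF1 libraries and 104, 114 and 90.4 FPKM in the WT libraries. Every CSF1 library was below every WT library (log2 change −0.62 with SE 0.13, limma adjusted p = 0.00740), and the fall passed under all 20 other settings, the only one of the 6 falls to do so. Sod2, the manganese enzyme of mitochondria, stood at 39.2, 48.4 and 49.6 FPKM in the CSF1 libraries and 32.0, 33.0 and 34.4 FPKM in the WT libraries and passed as higher (log2 change 0.45 with SE 0.14, limma adjusted p = 0.0374), but did not pass under 10 of 20 other settings. On leaving out 1 library the limma adjusted p was 0.121 without CSF1 library 5, 0.0968 without CSF1 library 8, 0.0811 without WT library 3, 0.112 without WT library 5 and 0.0642 without WT library 8. Sod3, the secreted extracellular enzyme, stood at 2.68, 3.47 and 1.93 FPKM in the CSF1 libraries and 0.137, 0.140 and 0.0803 FPKM in the WT libraries. Low as it was in CSF1, it lay above WT in every library (22.6-fold in mean FPKM, log2 change 1.70 with SE 0.23, limma adjusted p = 0.000833). Cufflinks' interval for Sod3 was 2.30 to 3.06, 3.08 to 3.86 and 1.61 to 2.24 FPKM in CSF1 and 0.0401 to 0.234, 0.0468 to 0.234 and 0 to 0.161 FPKM in WT. The stromal marker sum, most of it Dcn, moved the same way, and the part of stromal cells in the Sod3 value was not tested.

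Catalase, the peroxisomal enzyme that breaks down hydrogen peroxide, stood at 29.3, 30.5 and 34.0 FPKM in the CSF1 libraries and 19.9, 28.9 and 29.8 FPKM in the WT libraries, with overlap (log2 change 0.27, limma adjusted p = 0.289). Nqo1, the quinone reductase often used as a readout of NRF2 activity, stayed under 1 FPKM in every library, at 0.663, 0.448 and 0.872 FPKM in the CSF1 libraries and 0.749, 0.0427 and 0.989 FPKM in the WT libraries, and was not tested. Its relative Nqo2 stood at 3.85, 4.22 and 3.60 FPKM in the CSF1 libraries and 3.12, 3.20 and 4.81 FPKM in the WT libraries and did not pass (log2 change 0.07). Nqo2 shares 18.9% of its exon bases with Serpinb6a on the opposite strand. Serpinb6a stood far above it, at 135, 143 and 147 FPKM in CSF1 and 141, 152 and 164 FPKM in WT. Reads of the shared bases cannot be separated, so the Nqo2 values are uncertain.

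**Figure D4:**
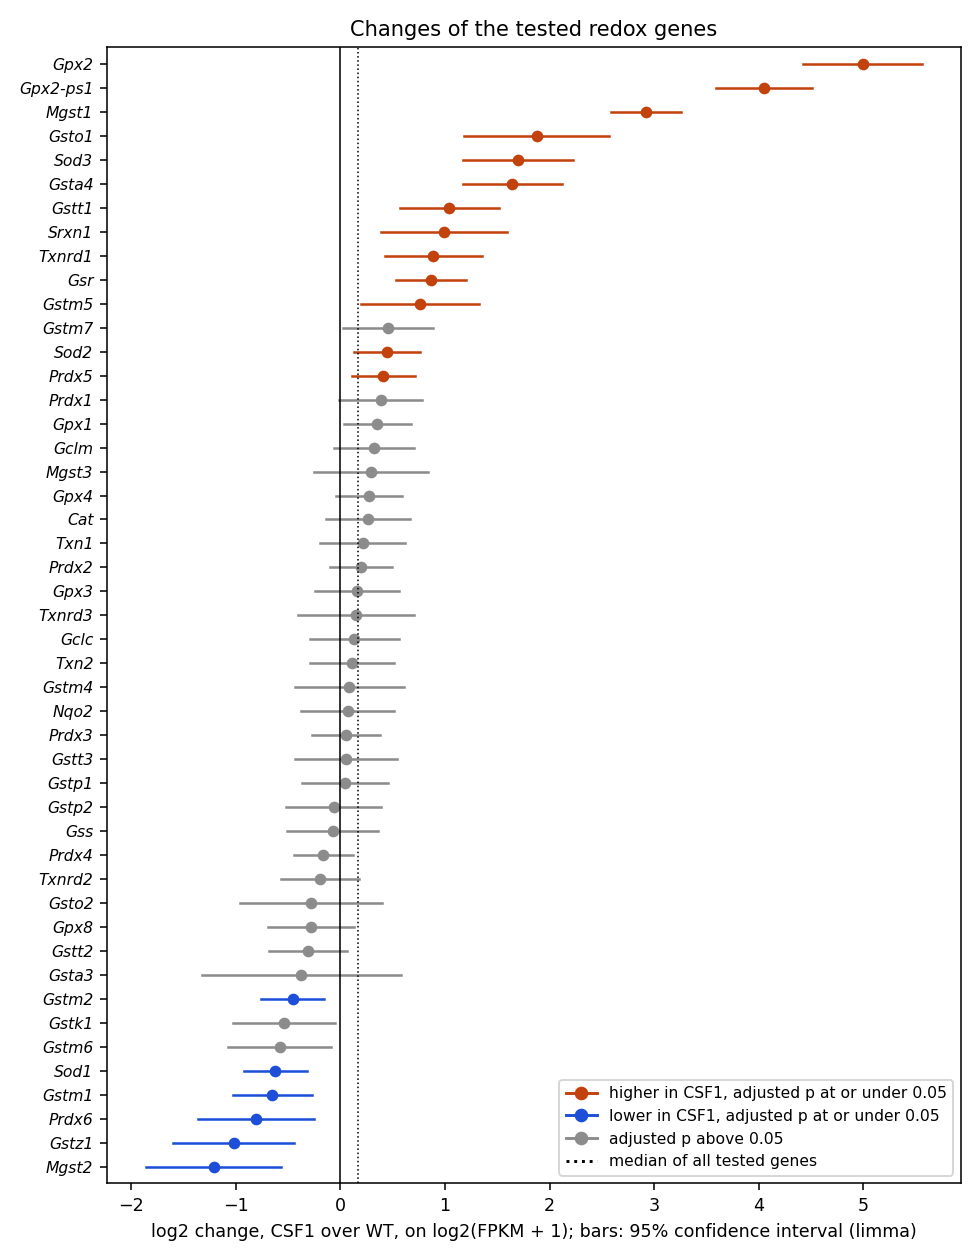
Log2 change of CSF1 over WT for the 47 tested genes, ordered by size, with bars for the 95% interval from limma, colour for the call and a dotted line at the median of all tested genes, 0.17. The 3 largest changes, Gpx2, Gpx2-ps1 and Mgst1, stand apart at 4.99, 4.05 and 2.92, and most genes lie within 1 unit of 0.

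Of the 10 members with more than 1 listed transcript, Txnrd1 was the only one that passed at the gene level as higher. Its transcript NM_001042513 stood at 38.2, 38.1 and 65.0 FPKM in CSF1 and 24.3, 25.6 and 28.7 FPKM in WT and passed (limma adjusted p = 0.0394), while NM_015762 stood at 8.63, 9.77 and 13.2 FPKM in CSF1 and 4.84, 6.16 and 0 FPKM in WT and did not pass (0.117). NM_015762 was listed at 0 in WT library 8. Among all 50 tested transcripts of the members, 12 were higher and 5 lower, beside 19.7% and 5.78% of the 12785 transcripts tested.

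Since several of the genes that rose are known NRF2 targets in other tissues, the promoters were read for the core of the antioxidant response element, TGACNNNGC, on both strands. RefSeq windows (GRCm38.p6) from 250 bases before to 50 after each start matched 48 members, in 63 windows. Unmatched were Gclc, Gpx2-ps1, Gsr, Gsta4, Gstt2, Prdx6, Prdx6b and Sod3. The letters occurred in 9 member windows, 14.3%, and in 12.4% of all 32851 windows, so their share among members was close to that of promoters at large. The 9 matches are shown with 10 bases on either side, 5′ to 3′ on the gene's strand, to let the variable letters be compared. Capitals mark the match, which reads as the reverse complement where the element lies on the other strand.
Mgst1 (chr6:138140461-138140489, plus strand): gcggggcttgGCACGGTCAggaggcgggg
Srxn1 (chr2:152105542-152105570, plus strand): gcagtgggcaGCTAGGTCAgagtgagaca
Txnrd1 (chr10:82859104-82859132, plus strand): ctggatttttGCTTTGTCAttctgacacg
Gstm5 (chr3:107895802-107895830, plus strand): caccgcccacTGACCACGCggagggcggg
Sod1 (chr16:90220696-90220724, plus strand): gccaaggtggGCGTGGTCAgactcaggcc
Gclm (chr3:122245413-122245441, plus strand): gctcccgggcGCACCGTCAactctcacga
Gsta3 (chr1:21240454-21240482, plus strand): aactcaggcaTGACATTGCatttttcttc
Gstm7 (chr3:107931725-107931753, minus strand): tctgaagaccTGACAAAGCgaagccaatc
Prdx1 (chr4:116685456-116685484, plus strand): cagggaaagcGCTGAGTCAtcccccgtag
Counted from the start, the matches lay at −56 in Mgst1, 29 in Srxn1, −92 in Txnrd1, −42 in Gstm5 and −56 in Sod1. Of these genes, the first 4 were higher and Sod1 was lower in CSF1, while Gclm, Gsta3, Gstm7 and Prdx1 did not pass. No match fell in the windows of Gpx2, Gsto1 or Gstt1, which says only that these letters are not in those windows. The related letters TGANTCA, bound by AP-1 factors, were present in windows of Gstm5, Gstp1, Gstp2, Mgst2, Nqo2, Prdx1 and Srxn1, and the Prdx1 match above contains them.

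The regulators of these genes, and the further lists below, were read from the same test with FPKM as deposited, without the other scalings. Nfe2l2, which encodes NRF2, stood at 59.7, 76.3 and 96.1 FPKM in the CSF1 libraries and 20.3, 25.0 and 25.9 FPKM in the WT libraries, without overlap (log2 change 1.65 with SE 0.19, limma adjusted p = 0.000386). Of 9 tested genes of NRF2 and its regulators, 4 were higher and 5 did not pass, beside 24.9% of all genes higher. Besides Nfe2l2 they were Nfe2l1, the small Maf partner Mafk (109, 98.6 and 98.1 FPKM in CSF1, against 72.9, 62.7 and 72.3 FPKM in WT, limma adjusted p = 0.0102) and Maff (30.02, 31.4 and 40.2 FPKM in CSF1, against 15.8, 14.0 and 18.4 FPKM in WT, limma adjusted p = 0.00203). Sqstm1, whose protein sequesters the NRF2 inhibitor KEAP1, stood at 275, 329.6 and 386 FPKM in the CSF1 libraries and 239, 329 and 305 FPKM in the WT libraries and did not pass. Known NRF2 targets outside the enzyme classes above were divided, with 4 of 16 tested higher and 2 lower, beside 24.9% and 7.47% of all genes. Of the 4, Aldh3a1 averaged under 1 FPKM in WT and was tested only because of its CSF1 values. Ugdh, which makes UDP-glucuronic acid, stood at 64.1, 97.4 and 90.3 FPKM in the CSF1 libraries and 5.33, 5.43 and 11.5 FPKM in the WT libraries (log2 change 3.39 with SE 0.28, limma adjusted p = 7.65e-05). Fth1, the ferritin heavy chain, stood at 2542, 2678 and 4689.9 FPKM in the CSF1 libraries and 1099.7, 849 and 1040.5 FPKM in the WT libraries (log2 change 1.68 with SE 0.24, limma adjusted p = 0.00108), and the light chain Ftl1 at 976, 1100.2 and 1532 FPKM in the CSF1 libraries and 1116, 999 and 1077 FPKM in the WT libraries, which did not pass. The 2 that fell were Osgin1 (44.6, 52.6 and 56.1 FPKM in CSF1, against 96.9, 129.8 and 126 FPKM in WT) and Cbr1 (126, 111 and 95.2 FPKM in CSF1, against 137, 158 and 168 FPKM in WT). Me1 passed as higher (log2 change 1.43 with SE 0.24, limma adjusted p = 0.00243). Hmox1 stood at 55.6, 91.8 and 232 FPKM in CSF1 and 14.5, 28.9 and 81.6 FPKM in WT. Its groups overlapped and it did not pass (log2 change 1.67 with SE 0.65, limma adjusted p = 0.0821). Osgin1, Cbr1, Me1 and Hmox1 were named after their values were seen.

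Of 14 genes for enzymes that make superoxide and peroxide, 7 were tested and passed as higher, beside 24.9% of all genes, and 7 lay below the filter. Of those tested, Noxa1, Cybb, Ncf1 and Ncf4 averaged under 1 FPKM in WT and so entered the test only through their CSF1 values, which leaves the count a description. Noxa1 and Noxo1, the activator and organiser of the NOX1 oxidase, were both higher without overlap, while the oxidase gene Nox1 was listed at 0 in all 6 libraries. Nox3, Nox4, Duox1 and Duox2 stayed below 0.2 FPKM in every library. Noxa1 stood at 31.8, 29.996 and 26.8 FPKM in the CSF1 libraries and 0.161, 0.478 and 0.410 FPKM in the WT libraries (log2 change 4.50 with SE 0.17, limma adjusted p = 2.34e-06). Noxo1 stood at 48.8, 33.2 and 45.4 FPKM in the CSF1 libraries and 2.20, 2.95 and 2.05 FPKM in the WT libraries (log2 change 3.67 with SE 0.19, limma adjusted p = 7.31e-06). Cyba, the membrane subunit shared by several NADPH oxidases, stood at 109, 117 and 243 FPKM in the CSF1 libraries and 5.12, 5.03 and 6.81 FPKM in the WT libraries (log2 change 4.47 with SE 0.29, limma adjusted p = 2.49e-05). CSF1 library 8 was the highest for Cyba, as it was for the macrophage marker sum, but not for Noxa1 or Noxo1. The remaining 4 were Cybb, Ncf1, Ncf4 and Xdh, of which all but Xdh are subunits of the phagocyte oxidase.

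Of the genes that supply, break down or export glutathione, 5 of 14 tested were higher and 1 lower, beside 24.9% and 7.47% of all genes. Of those higher, Dpep1, Abcc1 and Abcc5 averaged under 1 FPKM in WT and were tested only because of their CSF1 values. Dpep1, a dipeptidase of glutathione breakdown, stood at 10.5, 14.4 and 5.38 FPKM in the CSF1 libraries and 0.170, 0.113 and 0.217 FPKM in the WT libraries (log2 change 3.16 with SE 0.31, limma adjusted p = 0.000161). Abcc1, an exporter of glutathione conjugates, stood at 3.13, 3.56 and 5.66 FPKM in the CSF1 libraries and 0.252, 0.309 and 0.321 FPKM in the WT libraries (log2 change 1.95 with SE 0.23, limma adjusted p = 0.000450). Ggt1, the enzyme that begins glutathione breakdown outside the cell, was the gene that fell, at 28.9, 31.5 and 20.1 FPKM in the CSF1 libraries and 59.7, 59.6 and 75.7 FPKM in the WT libraries (log2 change −1.26 with SE 0.19, limma adjusted p = 0.00146, named after its values were seen). The abundant transporter genes Slc25a39, for mitochondrial glutathione import, and Slc3a2, the heavy chain of the cystine carrier, did not pass (log2 changes −0.04 and 0.45).

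Other thiol redox proteins gave 4 higher of 19 tested, beside 24.9% of all genes, and 15 did not pass. Msrb3, a methionine sulfoxide reductase, stood at 17.1, 21.0 and 32.5 FPKM in the CSF1 libraries and 6.16, 6.70 and 7.30 FPKM in the WT libraries (log2 change 1.62 with SE 0.23, limma adjusted p = 0.000959), and Aifm2, the ferroptosis suppressor, at 5.33, 5.48 and 3.25 FPKM in the CSF1 libraries and 1.75, 0.999 and 2.18 FPKM in the WT libraries (log2 change 1.11 with SE 0.25, limma adjusted p = 0.0105). Txnip, which binds and inhibits thioredoxin, also passed (121, 124 and 128 FPKM in CSF1, against 55.8, 92.9 and 85.7 FPKM in WT, limma adjusted p = 0.0231), whereas the abundant Park7 did not (log2 change −0.06). All 3 tested of 4 other MAPEG and sigma-class genes were higher, beside 24.9% of all genes. They were Alox5ap (log2 change 2.87), Hpgds (1.57) and Ptges (1.41), genes of leukotriene and prostaglandin synthesis. The first 2 averaged under 1 FPKM in WT and entered the test only through their CSF1 values, which leaves the count a description. Of 6 genes for selenoprotein synthesis 1 passed as higher, beside 24.9% of all genes. It was Sephs2, which makes the selenium donor (15.1, 16.3 and 15.1 FPKM in CSF1, against 8.81, 7.97 and 6.47 FPKM in WT, log2 change 0.93 with SE 0.16, limma adjusted p = 0.00246). Trnau1ap did not pass (log2 change 0.18).

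Across the 20 other settings, the calls of 10 members held wherever the setting gave a value. The 9 rises were Gpx2 (log2 change 4.41 to 5.25), Gpx2-ps1 (2.45 to 5.19), Mgst1 (2.68 to 3.03), Gsto1 (1.60 to 2.20), Sod3 (0.58 to 3.65), Gsta4 (1.41 to 1.82), Gstt1 (0.81 to 1.28), Txnrd1 (0.62 to 1.01) and Gsr (0.63 to 0.93), and the fall was Sod1 (−0.85 to −0.55). The lowest and highest values of Sod3 came with pseudocounts of 5 and 0.1. Sod3 and Gpx2-ps1 averaged under 1 FPKM in WT and entered the test only through their CSF1 values, so their place among the rises is a description. The other 9 calls, Srxn1, Gstm5, Sod2 and Prdx5 higher and Mgst2, Gstz1, Prdx6, Gstm1 and Gstm2 lower, were each lost under at least 1 setting.

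**Figure D5:**
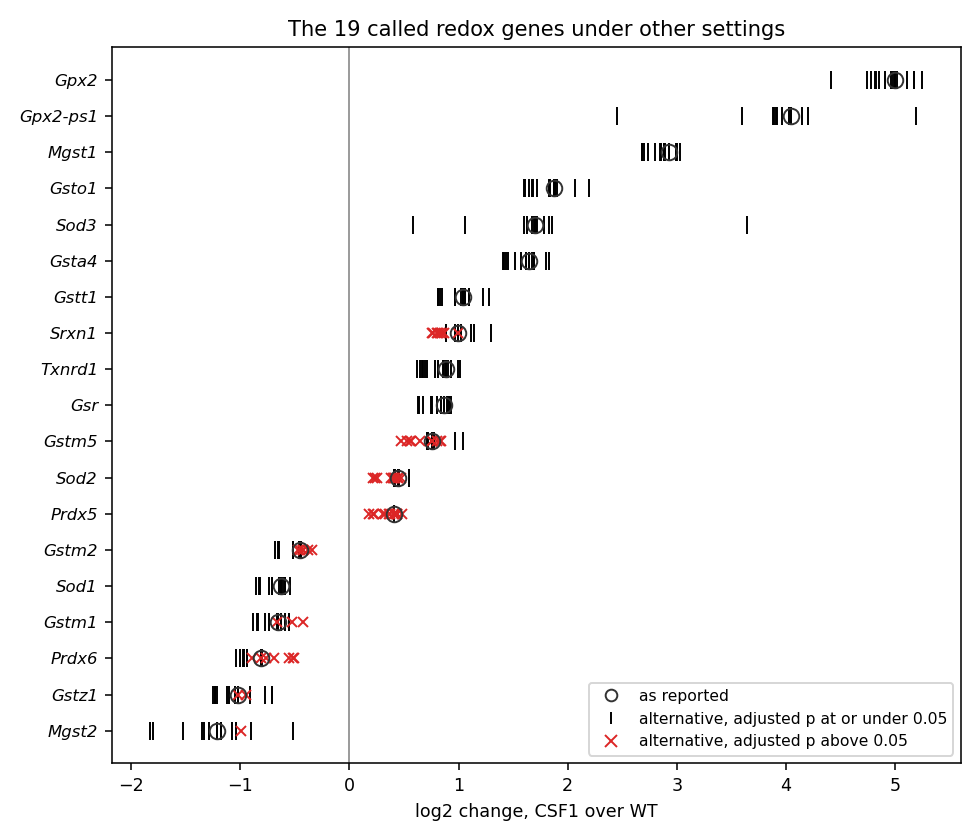
Log2 change of the 19 members that passed, 1 row per gene, as reported (open circles) and under each other setting (bars where the adjusted p was at or under 0.05, crosses where it was above). No gene changes side, and the crosses gather on Srxn1, Gstm5, Sod2, Prdx5 and the 5 falls other than Sod1.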

How the data were processed

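RNA of sorted prostate luminal cells was measured in 3 CSF1 and 3 WT libraries. Per the labels' protocols, the SMART-Seq v4 kit gave the cDNA, which was sequenced on an Illumina instrument, and the kits named do not mark strand. Per the submitters' processing notes, bcl2fastq 1.8.3, TopHat and Cufflinks were used with mm10, with versions of TopHat and Cufflinks not given in the sources used here. The authors deposited 1 Cufflinks table per library with 34535 transcripts. Its values and interval bounds are FPKM (fragments per kilobase of transcript scaled to the mapped fragments of the library) per the file headers. The deposited coverage column is a signal: read depth averaged along each transcript. Fragment totals are not in the tables and the depth behind each value is unknown.

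From these, FPKM was summed per gene symbol. Genes of HIDATA or FAIL status (9, none of them a member) were left out, and the 10951 genes averaging 1 FPKM or more were tested as log2(FPKM + 1) with limma 3.58.1 (trend, not robust, two-sided) in R 4.3.3. Benjamini-Hochberg adjustment ran over all of them, with a threshold of 0.05. Log2 changes use log2(FPKM + 1) and so understate the change of genes at low FPKM, and intervals are at 95%. Alternatives were 2 other pseudocounts, 2 other filters, 3 scalings, a block for the library number, array weights, no intensity trend, the most abundant transcript only, genes of failed status kept and leaving out each library. Added after seeing the data were merging members of at least 90% identity and leaving out both libraries numbered 8.

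Titles give both groups the same numbers, with no stated meaning. Deviations from the group means correlated at 0.26, 0.11 and 0.18 for same-numbered libraries 3, 5 and 8, and at −0.23 to −0.0064 for other pairs, which met the rule set for treating the numbers as pairs. Deviations cancel within a group, so positive values for the same numbers force negative values among other pairs. The contrast between them is therefore not independent evidence of pairing. The fit reported has no block, and the value with the block is given beside a member where it changes the call. The marker lists and related lists were read only without the block.

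Members were all genes matching the symbols given. Named with every library's value were members passing with at least a 2-fold change in mean FPKM + 1, the most abundant of each class, Gclc, Gclm, Gsr, Txn1, Txnrd1, Nqo1, Srxn1 and Cat. Gstm1, Gstm5, Prdx5, Sod2 and further members were named after their values were seen. From each related list the 2 largest changes that passed and the 2 most abundant genes were named. A gene of the related lists is not reported here and was left out of their counts. The members and all lists were chosen with earlier results of these data known. Transcript identity came from GENCODE M21, and alignments and figures used Biopython 1.88 and matplotlib 3.10.9.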

Additional observations from a re-analysis of the deposited data

How the results depend on the processing

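Over the 20 other settings, no member that passed changed direction. Of the recomputed log2 changes of the 29 members that passed or were named by the rule, 485 kept their direction and side of the threshold, 61 no longer passed, 6 newly passed and 23 took the opposite sign. All 23 belonged to 5 members that passed neither with FPKM as deposited nor under the setting concerned. Of the 18 other tested members, 6 newly passed under some setting, 18 times in all (Gstm6 under 6, Gpx8, Gstt2 and Prdx4 under 3 each, Gstm7 under 2 and Prdx1 under 1), and 10 took the opposite sign, 30 times in all and never with a pass. For the 5 members, under quantile normalization, median-ratio scaling and rescaling outside the 5 most abundant genes, in that order, the log2 changes were −0.16, −0.19 and −0.15 for Gstp1, −0.12, −0.18 and −0.14 for Gstt3, −0.32, −0.11 and −0.081 for Nqo2, and −0.18, −0.079 and −0.047 for Gclc. That of Txn1 was −0.019 under median-ratio scaling. With array weights Gstp1 was at −0.10 and Gclc at −0.0084. With 1 library left out, Gstp1 was at −0.067 and −0.14 (without CSF1 library 8 and WT library 3), Gstt3 at −0.058 and −0.17 (without CSF1 library 5 and WT library 3), Nqo2 at −0.016 and −0.0026 (without WT libraries 3 and 5) and Gclc at −0.046 (without CSF1 library 8), and the highest values over the libraries left out were 0.14 for Gstp1, 0.20 for Gstt3, 0.23 for Nqo2 and 0.24 for Gclc. Without both libraries numbered 8, Gclc was at −0.036.

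The same 3 scalings each gave 11 members lower, against 6 as deposited. In the same order, the median log2 change was −0.096, −0.071 and −0.035 over members and −0.16, −0.029 and 0.0028 over all genes, 2362, 1762 and 1437 of all genes were lower, and 10, 11 and 9 member transcripts were lower. All genes higher numbered 1694 under quantile normalization and 1761 with a filter at a mean of 5 FPKM, which tests fewer genes. The median over all genes was 0.11 with a pseudocount of 5 and 0.085 without a filter, where 3 member transcripts were lower. Without both libraries numbered 8, 2 members, 1 member transcript and 485 of all genes were lower, and the medians were 0.27 over members and 0.22 over all genes.

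The block for the library number gave 15 members higher and 7 lower, and changed no member call besides those of Gpx1, Gstm6 and Prdx1.
Leaving out 1 library gave 9 to 11 members higher and 3 to 6 lower (3 without WT library 8), with a median over members of 0.030 (without WT library 3) to 0.27 (without WT library 8). It gave 8 to 10 member transcripts higher and 1 to 5 lower, and 2053 to 2489 of all genes higher and 478 to 850 lower, with a median over all genes of 0.14 to 0.21. The cause of these differences was not tested. Sod3 was under the filter without CSF1 library 5 and gave no value there; Sod3, Gpx2-ps1, Mgst2 and Nqo2 were each missing from at least 1 setting. Without fragment totals, no counting interval besides that of Cufflinks can be set for members at low FPKM.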
